A study of Rattus norvegicus with 6 samples.

Results

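The genes described here are 42 rat genes of the cell cycle and of proliferation, measured in 6 samples of kidney RNA from rats aged 21 weeks. They were listed by name, in a choice made with earlier results of these data known. No measured value enters the rule itself: every probe on the array, other than control probes, whose RefSeq accession belongs to one of these genes was taken. Such probes were named for 38 of the 42 genes, 48 probes in all, out of 30367 probes on the array. No probe was named here for Mki67, Top2a, Mcm5 or Bub1b. A gene was tested if one of its probes stood well above local background on every array of either group, and 30 of the 38 measured genes were tested, among 17892 tested features of the whole array.

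The samples were 3 labelled diabetic and 3 labelled as treated with Bailing Capsule, a fermented Cordyceps preparation, each hybridised to a 1-colour Agilent rat array. The labels give neither strain, sex, dose or means of inducing diabetes nor whether rats given the capsule had diabetes. No kidney of a healthy rat was analysed here, and nothing in the labels says how the replicates were collected, so p-values here reflect only the spread among these 6 samples, which may be technical. The headers of the arrays name no slide. From array position and scan time in them 2 slides were inferred, which may be only groups by scan time. Slide 1 here stands for diabetic replicate 1 together with the 3 arrays of treated kidneys. Slide 2 stands for diabetic replicates 2 and 3.

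Cells enter division when D-type cyclins bind CDK4 or CDK6 and cyclin E binds CDK2, which releases E2F factors from the retinoblastoma protein and switches on genes of DNA replication. Genes needed in mitosis are switched on later, by the MuvB complex with B-MYB and FOXM1. These act through promoter elements called CHR (cell cycle genes homology region), often next to boxes bound by the factor NF-Y. Inhibitors of the p27 (Cdkn1b) and INK4 (Cdkn2a and Cdkn2b) families hold the kinases in check. In the adult kidney few cells divide, and tubule cells re-enter the cycle after injury.

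Some promoters of these genes hold letters of these elements: of 31 examined, 13 hold CHR letters and 8 hold E2F letters. The sequences below are shown because the replication genes and the mitotic genes are described separately. Of the 42 members, 31 were matched by symbol to a RefSeq promoter of assembly GRCr8, each with 250 bases before the start site and 50 after it. The letters searched on both strands were TTTGAA and TTCGAA for the CHR, CCAAT for the NF-Y box, and TTTCCCGC, TTTGGCGC, TTTCGCGC and TTTGCCGC for E2F sites. TTTCGCGC can overlap its own reverse complement, as in Mcm2. CHR letters stood in 9 of 14 promoters of the mitotic members (64.3%) and in 3 of 10 of the replication and deoxynucleotide members, against 19.7% of all 33469 promoters of that length. E2F letters stood in 7 of 10 promoters of the replication and deoxynucleotide members, in 1 of 14 of the mitotic members and in 2.14% of all promoters. CCAAT letters stood in 11 of the 14 mitotic promoters (78.6%) and in 37.5% of all promoters. A match describes the letters and does not show that a factor binds there.

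Sequences of 30 bases from tested members follow, 5′ to 3′ on the strand of the gene, with the matched letters in capitals. The first 5 hold CHR letters near the start site of mitotic genes, and the last 4 hold E2F letters near the start site of genes of replication and deoxynucleotide synthesis.
Ccnb2, chr8:79981684-79981713, minus strand: agcggcgcggtaTTTGAAtcgcggacccag
Cdk1, chr20:19265265-19265294, plus strand: taccgcggtgagTTTGAAactgctggcact
Plk1, chr1:186147652-186147681, plus strand: cccagcgctgcgTTTGAAttcggggaggag
Birc5, chr10:103572126-103572155, plus strand: ccgcccgcgggtTTTGAAttagggattgtg
Cdc20, chr5:137255833-137255862, minus strand: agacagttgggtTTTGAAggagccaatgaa
Mcm2, chr4:122918090-122918119, minus strand: cgtgacccggtTTTCGCGCgaaaacccgtg
Mcm3, chr9:30733715-30733744, minus strand: acttgggaagtTTTCGCGCcagggaggagt
Mcm7, chr12:22163212-22163241, minus strand: gggtgacgacgTTTCGCGCcaatttcggtt
Tyms, chr9:120776102-120776131, minus strand: aaggtgcgggtTTTGGCGCcgactacactg

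Kif11 had the largest difference between the groups among the tested members, so the 250 bases before its start site are shown, with the single match, an NF-Y box on the opposite strand, in capitals.
Kif11, chr1:244536617-244536866, plus strand: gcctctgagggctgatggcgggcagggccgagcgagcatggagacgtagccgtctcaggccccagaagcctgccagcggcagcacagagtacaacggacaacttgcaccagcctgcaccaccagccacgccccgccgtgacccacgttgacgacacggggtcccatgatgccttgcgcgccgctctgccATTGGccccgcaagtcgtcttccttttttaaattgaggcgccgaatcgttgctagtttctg

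**Figure D1:**
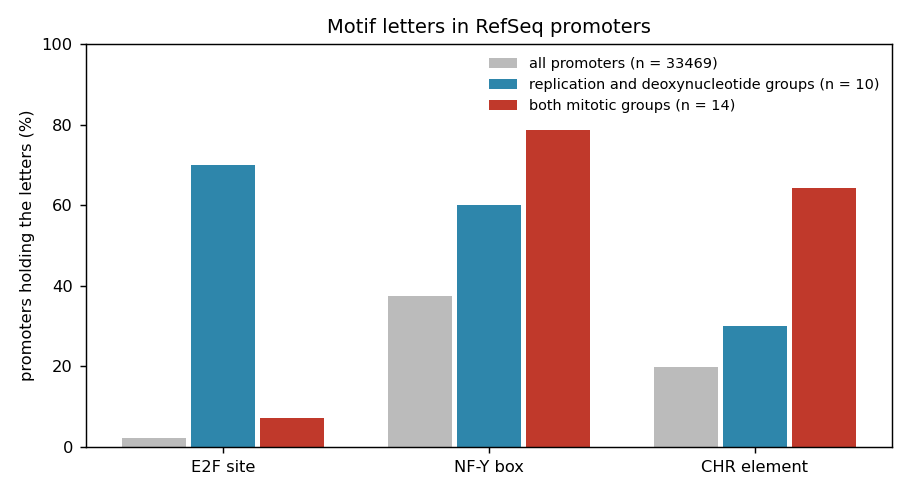
Percentage of RefSeq promoters (vertical axis, 0 to 100%) that hold the letters of an E2F site, an NF-Y box or a CHR element, for all 33469 promoters, the 10 promoters of replication and deoxynucleotide members and the 14 promoters of mitotic members. E2F letters are held by 70.0% of the replication and deoxynucleotide promoters and CHR letters by 64.3% of the mitotic ones.

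The series asks how Bailing Capsule affects renal gene expression, and the comparison was Bailing Capsule minus diabetic. No cell cycle member passed the test. limma called 0 of the 30 tested members at an adjusted p under 0.05, where it called 0.319% of all tested features. At an unadjusted p under 0.05 there were 3 members, Kif11, Ccne1 and Plk1, all lower in Bailing Capsule kidneys, and 7.55% of all features. Of the 30 members 20 had negative values, against 62.1% of all features, and the median log2 difference was -0.13, against -0.09 over all features. Ccnb2 passed the filter on dim probes through the diabetic arrays alone, and without it the median was -0.12. The median of all features was 0.089 with slide as a block and 0.0087 without diabetic replicate 2. The member median minus that of all features was -0.036 in the main fit and -0.10 with slide as a block. With 1 array left out it ran from -0.033 to 0.076. Of the 30 members 16 had negative values in the deposited table, where 51.0% of all features had positive ones. The median of the members there was -0.07, against 0.0066 over all features.

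The groups of 3 did not overlap for 6 members, with Kif11, Ccne1, Plk1, Ccna2 and Tyms below and Cdk6 above in Bailing Capsule kidneys, where 11.6% of all features did not overlap, 7.06% with Bailing Capsule below and 4.58% above. No member differed by over 1 log2 unit, as 3.61% of all features did. With 1 array left out the count was 10, 8 and 12 without diabetic replicates 1, 2 and 3, and 10, 10 and 7 without Bailing Capsule replicates 1, 2 and 3, while the share of all features without overlap ran from 15.2% to 32.4%.

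The precision limits what can be said of the rest. Standard errors of the tested members ran from 0.24 to 0.43 on the log2 scale. For 27 of 30 members the 95% interval of the difference included 0, and for 18 it lay within 1 log2 unit of 0 on both sides, so that a doubling and a halving were outside it. For the other 12 members a change of 2-fold was within the interval.

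**Figure D2:**
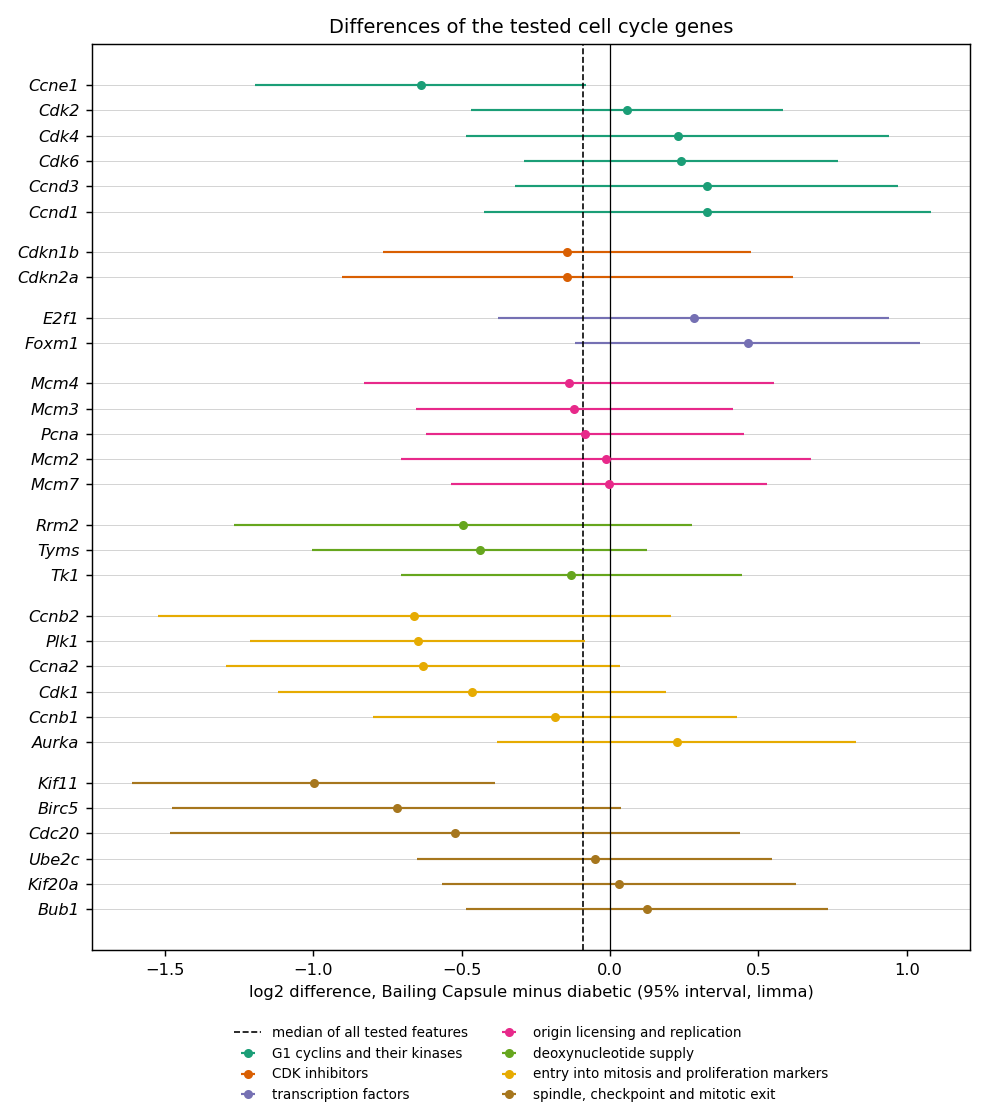
Log2 difference, Bailing Capsule minus diabetic, of the 30 tested members (points) with the 95% interval from limma (bars), coloured by role; the dashed line is the median of all 17892 tested features, -0.09. The intervals of Kif11, Ccne1 and Plk1 lie below 0, and those of the other 27 members include 0.

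Values of single arrays below are log2 processed signals minus the 75th percentile of the array, given in the order of replicates 1, 2 and 3. A positive value is a spot brighter than that percentile, and levels of different genes are not compared, since each rests on its own probe. The number of arrays limits the precision. Values within slide 1 rest on 1 diabetic array, and there the median over all features was 0.07, with 57.7% of them positive. Bulk kidney was measured, in which fewer cells of a kind and less RNA per cell cannot be told apart.

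Cyclins of G1 and their kinases had small positive differences, with cyclin E1 as the exception. The D-type cyclin gene Ccnd1 had -1.52, -0.67 and -0.96 in diabetic kidneys and -1.18, -0.13 and -0.85 in Bailing Capsule kidneys. The groups overlapped, and the difference was 0.33 (SE 0.34, 95% interval -0.42 to 1.08). Ccnd3, a further D-type cyclin, had -3.82, -4.12 and -4.06 against -3.94, -3.13 and -3.95, where Bailing Capsule replicate 2 stood above all other arrays. Its difference was 0.33, with an interval of -0.32 to 0.97. Without Bailing Capsule replicate 2 the values were 0.033 for Ccnd1 and 0.056 for Ccnd3. Without diabetic replicate 1 Ccnd1 had 0.094, and within slide 1, against that array alone, 0.80. Ccnd2, the third D-type cyclin gene, had -4.08, -4.79 and -4.03 against -5.13, -3.91 and -4.38. It was well above background on 2 arrays of each group, which overlapped, and was not tested.

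Cdk4, a partner kinase of the D cyclins, had -3.53, -3.25 and -3.19 in diabetic kidneys and -2.71, -2.80 and -3.78 in Bailing Capsule kidneys, so that the Bailing Capsule arrays held both the highest and the lowest values. Its difference was 0.23 (SE 0.32), with 0.43 within slide 1 and 0.033 without Bailing Capsule replicate 1. Cdk6, the other partner kinase, had -3.67, -3.53 and -3.63 against -3.50, -3.42 and -3.18. All 3 Bailing Capsule arrays were above the 3 diabetic arrays, by a mean of 0.24 (interval -0.29 to 0.77; limma adjusted p = 0.959).

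Ccne1, which encodes cyclin E1 and drives entry into S phase with CDK2, had -2.222, -2.003 and -2.422 in diabetic kidneys and -2.704, -3.059 and -2.801 in Bailing Capsule kidneys. Every Bailing Capsule array lay below every diabetic array, and the mean was 1.56-fold lower (log2 difference -0.64, SE 0.25, interval -1.20 to -0.08). Ccne1 did not pass over all features (limma adjusted p = 0.546), and its value on slide 1, against diabetic replicate 1 alone, was -0.63. With normexp background correction and quantile normalization, changed together, it was -0.24. Cdk2, measured by 10 spots per array, differed by 0.06 (interval -0.47 to 0.58).

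Of the inhibitors, Cdkn1b and Cdkn2a were above background on all 6 arrays. Cdkn1b, which encodes p27, had 0.68, 1.11 and 0.69 in diabetic kidneys and 1.02, 0.30 and 0.72 in Bailing Capsule kidneys. Bailing Capsule replicate 2 was the lowest and diabetic replicate 2 the highest, and the difference was -0.15 (interval -0.77 to 0.47). Cdkn2a, whose locus encodes p16 and ARF, both linked to senescence, had -4.27, -3.03 and -3.33 against -3.46, -3.60 and -3.99. Diabetic replicate 1 was the lowest of all 6 arrays, so the difference was -0.14 over all arrays and 0.58 within slide 1. For Cdkn1b the difference within slide 1 was 0.0035.

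Cdkn2b, the gene of p15, was not well above background on any array with either of its probes. Its probe of 10 spots had -6.71, -6.41 and -6.80 in diabetic kidneys and -6.45, -7.44 and -6.45 in Bailing Capsule kidneys, and no fold is given for it.

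Both transcription factors had positive values. Foxm1, which drives genes of G2 and mitosis, had the largest positive difference among tested members, and its probe had 10 spots. Its values were -2.57, -2.10 and -2.58 in diabetic kidneys and -2.13, -1.71 and -2.02 in Bailing Capsule kidneys. Only diabetic replicate 2 reached the range of the Bailing Capsule arrays. The mean was 1.38-fold higher (log2 difference 0.46, SE 0.26, interval -0.12 to 1.05; limma adjusted p = 0.793). Its value was positive under every alternative run, from 0.24 to 0.62. A second probe of Foxm1 was not well above background on any array.

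E2f1, an activator of replication genes, had -0.78, 0.24 and -0.33 in diabetic kidneys and -0.07, 0.05 and -0.01 in Bailing Capsule kidneys. The Bailing Capsule arrays lay inside the diabetic range, and the difference was 0.28 (interval -0.38 to 0.94). It was 0.035 without diabetic replicate 1 and 0.78 within slide 1, against that array alone. A second probe of E2f1 was well above background on 1 diabetic array and on no Bailing Capsule array. Its signals were lower on every Bailing Capsule array than on any diabetic one, but they carry no fold, and it was not tested.

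Genes of origin licensing and replication were the group with the smallest differences. The 5 tested members, Mcm2, Mcm3, Mcm4 and Mcm7 of the replicative helicase and Pcna, the sliding clamp of DNA polymerase, had values from -0.14 to -0.0026. Under other scalings Mcm2, Mcm7 and Pcna took positive values, of at most 0.091. Pcna had 2.52, 2.65 and 2.37 in diabetic kidneys and 2.52, 2.26 and 2.52 in Bailing Capsule kidneys. The groups overlapped throughout, and the difference was -0.08 (SE 0.24, interval -0.62 to 0.45). Mcm7 had 0.71, 1.07 and 0.88 against 0.94, 0.91 and 0.80, with an interval of -0.54 to 0.53. Mcm3 was nearly the same on the 3 diabetic arrays, at -0.58, -0.58 and -0.59, and had -0.58, -0.93 and -0.60 in Bailing Capsule kidneys, and a second kept probe of it gave -0.24 in place of -0.12. For Mcm2 the interval was -0.71 to 0.68 and for Mcm4 -0.83 to 0.55. Within slide 1 the differences of Mcm2 and Mcm4 were 0.23 and 0.36.

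The other licensing factors were at or near background. Cdt1, which loads the helicase, and Mcm6 were not well above background on any array. Cdc6, the partner of Cdt1, was well above background on a single array, in the diabetic group. It had -6.96, -5.07 and -4.57 in diabetic kidneys and -5.87, -7.56 and -6.43 in Bailing Capsule kidneys, which overlapped, and it was not tested.

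Enzymes that supply deoxynucleotides had negative values in all 3 tested members, with a median of -0.44. Tyms, thymidylate synthase, had 0.10, 0.32 and -0.23 in diabetic kidneys and -0.37, -0.49 and -0.27 in Bailing Capsule kidneys. The groups did not overlap, by a narrow margin between diabetic replicate 3 and Bailing Capsule replicate 3, and the difference was -0.44 (SE 0.25; limma adjusted p = 0.803). Rrm2, the regulated subunit of ribonucleotide reductase, had -0.18, -0.29 and -0.86 against -0.39, -1.61 and -0.82. Its mean was 1.41-fold lower (log2 difference -0.50, SE 0.35), and without Bailing Capsule replicate 2, the lowest array, the value was -0.16, while within slide 1 it was -0.76. Tk1, thymidine kinase, had -0.13 (interval -0.71 to 0.44).

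Rrm1, the large subunit of ribonucleotide reductase, had -5.91, -6.44 and -5.52 in diabetic kidneys and -6.85, -8.12 and -7.19 in Bailing Capsule kidneys. No array was well above background, so these signals carry no fold, and Rrm1 was not tested. In the fit with no filter on dim probes its adjusted p was 0.549, the lowest of any member there.

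**Figure D3:**
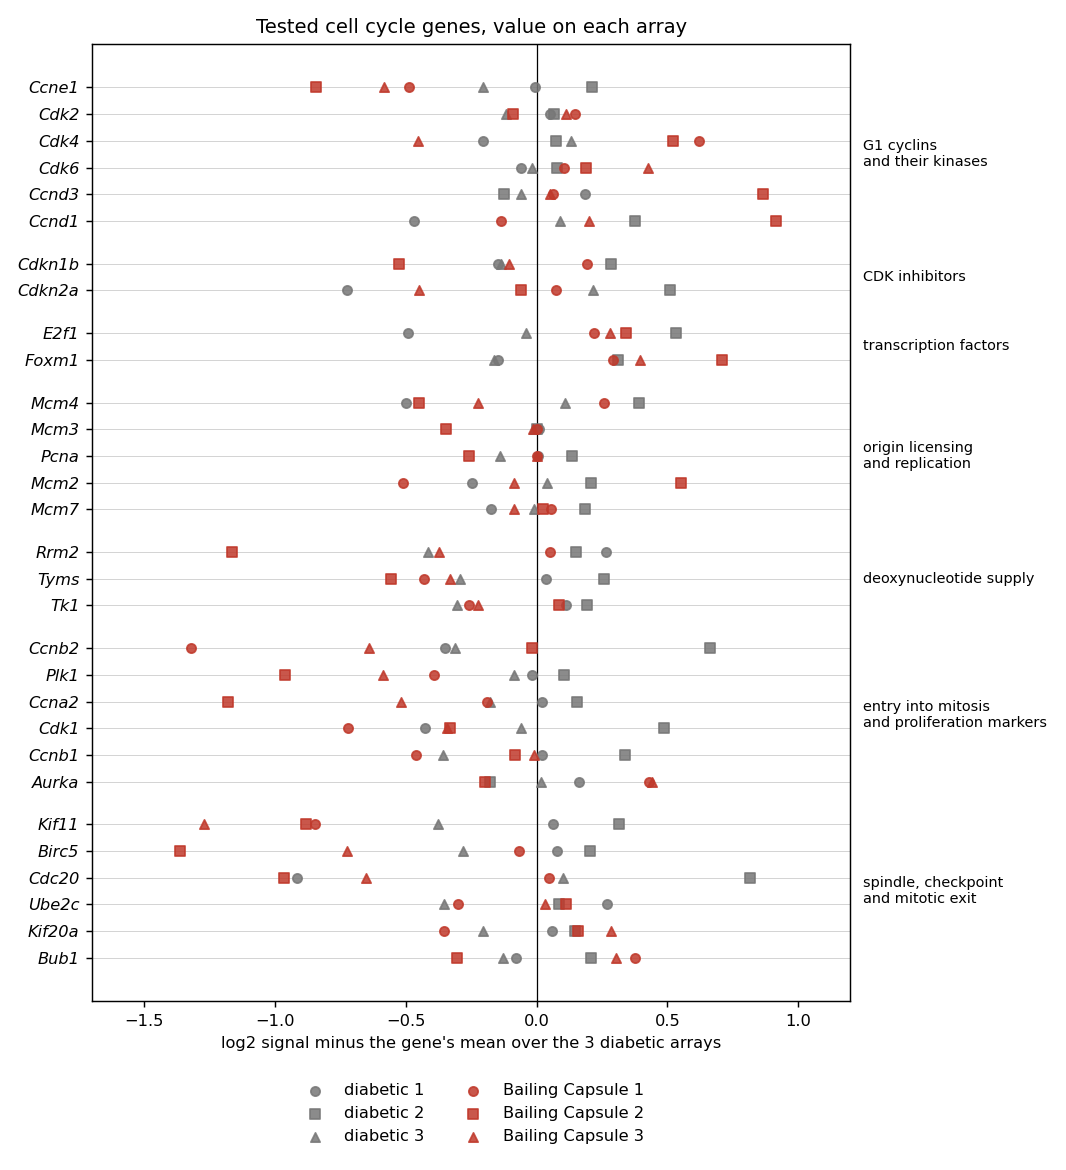
Log2 signal of each tested member on each array, minus the mean of that gene over the 3 diabetic arrays (horizontal axis), with diabetic arrays in grey and Bailing Capsule arrays in red and the replicate number by symbol. Kif11, Plk1 and Ccne1 show all red points left of all grey ones, while Pcna, Mcm7 and Cdk2 show the 2 groups intermixed.

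Members that act at entry into mitosis had negative values in 5 of 6 tested genes, with a median of -0.55, and 0 of them passed in limma. Ccnb2 entered this group only through its diabetic arrays, and the other 5 had a median of -0.47 with 4 negative. Plk1, a kinase of centrosomes and mitotic entry, had -3.08, -2.96 and -3.14 in diabetic kidneys and -3.45, -4.02 and -3.65 in Bailing Capsule kidneys. Every Bailing Capsule array lay below every diabetic array, and the mean was 1.57-fold lower (log2 difference -0.65, SE 0.25, interval -1.21 to -0.08; limma adjusted p = 0.546). Within slide 1 the value was -0.63, and with normexp and quantile normalization it was -0.18.

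Ccna2, which encodes cyclin A2 of S phase and G2, was measured by 2 kept probes. The brighter probe had -1.82, -1.68 and -2.02 in diabetic kidneys and -2.03, -3.02 and -2.36 in Bailing Capsule kidneys. The other had -2.07, -1.81 and -2.02 against -2.58, -2.75 and -2.34. On both probes all Bailing Capsule arrays were below all diabetic arrays, with differences of -0.63 and -0.59. Neither passed (limma adjusted p = 0.696 for the gene).

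Cdk1, the kinase of mitotic entry, was measured by 10 spots per array and had -1.46, -0.55 and -1.10 in diabetic kidneys and -1.76, -1.37 and -1.38 in Bailing Capsule kidneys. Diabetic replicate 1 lay among the Bailing Capsule arrays. The difference was -0.47 (SE 0.29, interval -1.12 to 0.19), and within slide 1 it was -0.04. The B-type cyclin genes, whose products activate CDK1, were Ccnb1 with -3.75, -3.43 and -4.12 against -4.23, -3.85 and -3.78, and Ccnb2 with -4.24, -3.23 and -4.20 against -5.21, -3.91 and -4.53. Both overlapped between the groups. Their differences were -0.18 (interval -0.80 to 0.43) and -0.66 (interval -1.52 to 0.20). Of the Bailing Capsule arrays 2 had Ccnb2 well above background, and its value was -0.10 with normexp and quantile normalization and -0.31 within slide 1. Aurka, the centrosomal Aurora kinase, had a positive value, 0.22 (interval -0.38 to 0.83).

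Of the genes of the spindle, the checkpoint and mitotic exit, Kif11 stood lowest. Kif11 encodes Eg5, the motor that separates spindle poles, and its probe had 10 spots per array. Its values were 3.02, 3.27 and 2.58 in diabetic kidneys and 2.11, 2.07 and 1.68 in Bailing Capsule kidneys. The lowest diabetic array was above the highest Bailing Capsule array. The mean went from 2.95 ± 0.35 to 1.95 ± 0.24 (log2, SD, n = 3). That is a log2 difference of -0.999 (SE 0.28, interval -1.61 to -0.39), and its limma adjusted p was 0.27, the lowest of any member. Under the alternatives run the value lay between -1.19 and -0.84 and the adjusted p reached 0.146 at the lowest, so Kif11 passed in none of them. Its limma adjusted p was 0.714 without diabetic replicate 2 and 0.799 without Bailing Capsule replicate 3. Within slide 1 its value was -1.06.

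Birc5, which encodes survivin of the chromosomal passenger complex, had -1.40, -1.27 and -1.76 in diabetic kidneys and -1.54, -2.84 and -2.20 in Bailing Capsule kidneys. Bailing Capsule replicate 1 lay inside the diabetic range. The difference was -0.72 (SE 0.34, interval -1.48 to 0.04; limma adjusted p = 0.696), and it was -0.40 without Bailing Capsule replicate 2 and -0.38 with normexp and quantile normalization. Cdc20, an activator of the anaphase-promoting complex, had 6.11, 7.84 and 7.12 against 7.07, 6.06 and 6.37, where diabetic replicate 2 was the highest and diabetic replicate 1 close to the lowest. Its difference was -0.52 over all arrays (SE 0.43, the largest SE of the tested members) and 0.39 within slide 1.

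The remaining tested genes of this group had values near 0. Bub1, a kinase of the spindle checkpoint, had 0.13 (interval -0.48 to 0.73). Kif20a, a kinesin of cytokinesis, had 0.03 and Ube2c, the conjugating enzyme of the anaphase-promoting complex, -0.05, and both signs changed under other settings. Aurkb, the passenger complex kinase, and Cenpf, a kinetochore protein, were not well above background on any array.

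Summed up by array, the groups of genes differed in which arrays were low. Relative to the diabetic mean of each gene, the median of the 6 genes of mitotic entry was 0.00083, 0.25 and -0.13 in diabetic kidneys and -0.43, -0.26 and -0.43 in Bailing Capsule kidneys. Without Ccnb2 it was 0.02, 0.16 and -0.09 against -0.39, -0.33 and -0.34. That of the 6 spindle and exit genes was 0.06, 0.21 and -0.24 against -0.18, -0.59 and -0.31, which overlap. The 29 tested mitotic genes outside the members, from a further list read below, had -0.08, 0.21 and -0.05 against -0.07, -0.32 and -0.32, which also overlap. Their median log2 difference was -0.13, against -0.09 over all features, and 24 of them had negative values, against 62.1% of all features. The 6 tested G1 cyclins and kinases had -0.032, 0.075 and -0.039 against 0.084, 0.354 and 0.082. These did not overlap, by a narrow margin, with the Bailing Capsule arrays above. The 5 replication genes had -0.17, 0.19 and -0.0089 against 0.0022, -0.26 and -0.09. Array-wide shifts ran in part the same way as those of the mitotic groups. The median of all features was -0.15, 0.21 and -0.04 in diabetic kidneys and 0.03, -0.18 and -0.13 in Bailing Capsule kidneys. Diabetic replicate 2 was the highest array for 17 of the 30 members and Bailing Capsule replicate 2 the lowest for 12.

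**Figure D4:**
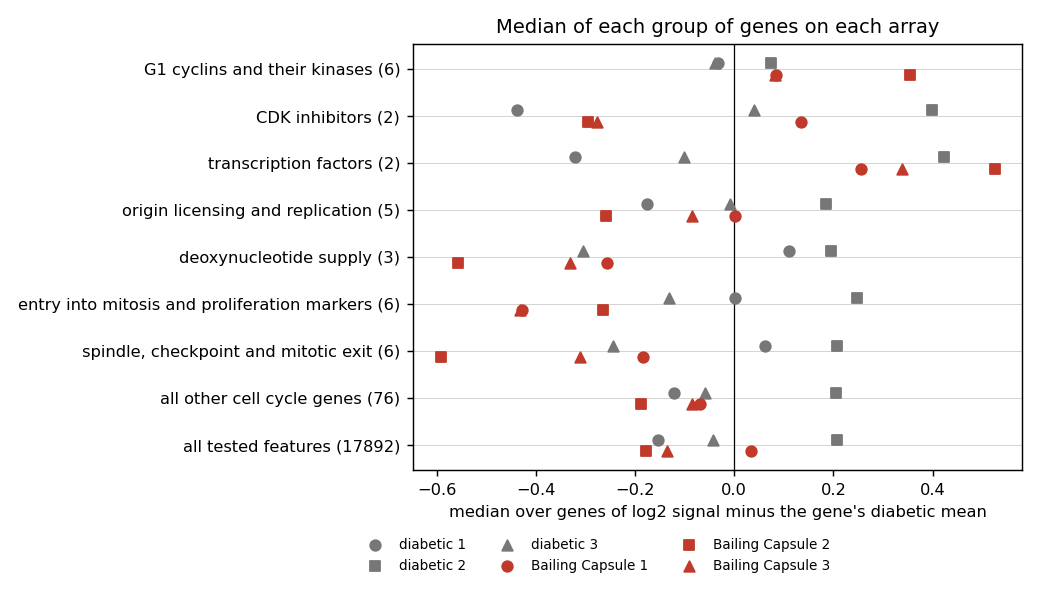
Median over the tested genes of each group (number of genes in brackets) of the log2 signal minus the diabetic mean of the gene, for each array. The 3 Bailing Capsule arrays lie below the 3 diabetic arrays for genes of mitotic entry, and narrowly above them for the G1 cyclins and their kinases. The groups overlap for deoxynucleotide supply, for the spindle genes and for the replication genes.

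The differences were also set beside the promoter letters. Tested members with CHR letters were Birc5 (-0.72), Plk1 (-0.65), Cdc20 (-0.52), Cdk1 (-0.47), Mcm2 (-0.014), Mcm7 (-0.0026) and Ccnb2 (-0.66), of which Ccnb2 was tested only through its diabetic arrays. Within slide 1, Cdc20, Mcm2 and Mcm7 were positive, and Mcm2 and Mcm7 were so under median scaling and in the deposited table too. The 5 with E2F letters had a median of -0.12, and the 13 with neither had a median of -0.08, with 7 of them negative. These sets share genes and arrays, and Kif11, with the largest difference, holds neither kind of letters in its window, so they are given as a description.

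Other genes of the cell cycle were read in the same fit. A list of 127 further genes held 106 with a named probe, of which 76 were tested, and limma called 0 of them, where 0.319% of all features were called. At an unadjusted p under 0.05 there were 3, Prc1, Spc25 and Cks2, all lower, against 7.55% of all features. Signals were above background on all 6 arrays for 72 of the 76 genes. Of the 76 genes 54 had negative values, against 62.1% of all features, with a median of -0.12. The groups did not overlap for 6 of them, or 7.89%, below the 11.6% of all features.

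By the brightest kept probe of each gene, the 5 largest negative differences in this list included Prc1 (-0.87), which bundles the microtubules of the central spindle. The others were Spc25 of the kinetochore (-0.86), the CDK-binding subunits Cks2 (-0.81) and Cks1b (-0.67), and Incenp of the passenger complex (-0.58). Second kept probes of some genes disagreed with the brightest. That of Cdkn1a gave -1.23 without overlap, against -0.03 (limma adjusted p = 0.245 for the second probe, probes tested singly). That of Ckap2 gave -0.77 without overlap, against -0.38, and that of Ccng2 gave 0.13 against -0.32. Prc1, on a probe of 10 spots, had -3.26, -2.22 and -2.74 in diabetic kidneys and -3.98, -3.47 and -3.38 in Bailing Capsule kidneys. The groups did not overlap, but its value within slide 1 was -0.35, with normexp and quantile normalization it was -0.29, and its limma adjusted p was 0.487. Spc25 had -3.35, -2.83 and -3.13 against -3.52, -4.46 and -3.90, again without overlap (limma adjusted p = 0.437), and its value was -0.28 with normexp and quantile normalization. Cks2 had 1.09, 1.54 and 1.18 against 0.94, -0.14 and 0.58, and -0.51 as its difference without Bailing Capsule replicate 2. Cks1b had 2.62, 2.85 and 2.59 against 2.59, 1.32 and 2.15, and -0.32 as its difference without that array. For both, Bailing Capsule replicate 2 was the lowest array. Incenp had -2.04, -4.38 and -1.56 against -3.98, -2.23 and -3.51. Its arrays overlapped widely, and with 1 array left out its difference ran from -1.44 without diabetic replicate 2 to -0.031 without diabetic replicate 3. The 5 largest positive differences were in the helicase gene Mcm8 (0.54), the polymerase genes Pola1 (0.40) and Pold1 (0.31), the condensin gene Smc2 (0.33) and Fbxo5, an inhibitor of the anaphase-promoting complex (0.26). Pola1 had -0.46, -0.34 and -0.48 against 0.11, -0.05 and -0.14, without overlap (limma adjusted p = 0.815). Smc2 had -4.63, -5.03 and -4.79 against -4.47, -4.40 and -4.58, also without overlap. The other 3 overlapped between the groups. Mcm8 had -2.34, -1.69 and -2.87 against -1.91, -1.99 and -1.39, and 0.25 as its difference without diabetic replicate 3. Pold1 had -4.35, -3.93 and -3.71 against -4.04, -3.26 and -3.74. Fbxo5 had -4.25, -5.14 and -5.01 against -4.38, -4.86 and -4.39, and its sign turned within slide 1. It was well above background on 2 diabetic arrays and on all 3 Bailing Capsule arrays, so it passed the filter through the latter alone.

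Markers of the tissue and of other cell types were read on the same arrays. Of 17 markers of kidney tubule, podocyte and endothelium 16 were tested and all 16 were above background on every array, with array medians of -0.28, 0.33 and -0.09 in diabetic kidneys and 0.28, -0.58 and -0.22 in Bailing Capsule kidneys. Of 16 leukocyte markers 8 were tested. Their array medians were -0.21, -0.08 and 0.12 in diabetic kidneys and 0.27, -0.11 and -0.01 in Bailing Capsule kidneys. Nkg7 was well above background on no diabetic array and entered through the Bailing Capsule arrays alone. Cd3e, Cd4, Cd8a, Cd79b and Itgam were below the filter. Of 7 erythroid and platelet markers 4 were tested, all with positive values, and their array medians were -0.21, 0.12 and 0.23 against 0.75, -0.11 and 0.60. Alas2, the first enzyme of erythroid haem synthesis, had 1.04, and Pf4 of platelets 0.83, the 2 of these at an unadjusted p under 0.05, and neither passed. Of 8 markers of fibroblasts and smooth muscle 7 were tested, 6 with negative values, and their array medians were -0.19, 0.04 and 0.13 against -0.18, 0.28 and -0.49. Of 10 markers of injured and regenerating tubule 9 were tested, with array medians of 0.0066, 0.07 and -0.0027 against -0.27, -0.57 and -0.35. Lcn2 was well above background on 1 Bailing Capsule array and entered through the diabetic arrays alone. Of the 9 markers 1 passed, Clu, which encodes the chaperone clusterin, where 0.319% of all features passed. Its log2 difference was -1.55 (limma adjusted p = 0.0493). It had 2.67, 2.74 and 2.47 against 0.76, 1.44 and 1.02, without overlap. Its value lay between -1.74 and -1.37 over 19 alternatives, chosen for it after its value was seen, and it passed in 5 of them, with adjusted p-values from 0.0104 to 0.539. Of the 6 fits with 1 array left out, it passed only in that without diabetic replicate 1 (adjusted p = 0.0345). The 3 tested liver markers, Alb, Ttr and Serpina1, had array medians of 0.30, -0.26 and 0.24 against -0.66, -1.25 and -1.60. The part of these cell types in the values of the mitotic genes was not tested.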

How the data were processed

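Agilent Feature Extraction 11.0.1.1 made the spot values from scans of a G2505C instrument, per the file headers. The deposited intensity of a spot is its processed signal, already corrected for background and detrended but not scaled across arrays. A deposited table of log2 values served as an alternative. Its columns share their median, as after quantile normalization, but how it was made is not given in the sources used here. Outlier spots were left out, spots of a probe were averaged on the log2 scale, and arrays were scaled by subtracting their own 75th percentile. A probe counted as well above background where at least 50% of its spots were. The brightest kept probe stood for a gene. RefSeq accessions were matched without versions to a GRCr8 gene table, which named 18005 of 30367 probes. The comparison used limma 3.58.1 (R 4.3.3; lmFit, eBayes, Benjamini-Hochberg over all 17892 features, adjusted p under 0.05). The members, lists and role groups were chosen with earlier results of these data known. Values on every array are given for the 5 largest differences in each direction, the D cyclins and their kinases, the inhibitors, Pcna, Ccnb1 and Cdk1, and the 5 largest in each direction among other cell cycle genes. Mcm3, Mcm7, Cdc6, Rrm1, Rrm2, Tyms, Ccna2, Cdc20 and Clu were added after their values were seen. The tests were tried on simulated data.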

Additional observations from a re-analysis of the deposited data

How the results depend on the processing

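No member and no other cell cycle gene was called by limma under any alternative run: quantile or median scaling, normexp with an offset of 50 and quantile normalization, the deposited table, dim probes kept, only genes above background on 6 of 6 arrays, probes of a gene averaged or tested singly, an intensity trend, robust variances, slide as a fixed or random block, slide 1 alone, the replicate block and leaving out each array. Of 30 tested members 19 kept their sign under all of these. The number of features called over the whole array was 57, and 14 with normexp, 6 with no filter, 7 on slide 1 alone and 6 with the replicate block. It was 17 to 326 with 1 array left out, namely 326, 17 and 23 for diabetic arrays 1, 2 and 3 and 122, 28 and 25 for Bailing Capsule arrays 1, 2 and 3. The settings with fewer arrays or more features differ by construction; otherwise the cause was not tested. Of the 57 calls 23 were higher in Bailing Capsule kidneys, and 25 of 46 in the deposited table. Members without overlap numbered 19 on slide 1 alone, where 45.5% of all features did not overlap, and 7 to 12 with 1 array left out. The same-numbered samples share only a number: after group means were removed they correlated at -0.18, -0.14 and 0.02, and 0 samples correlated best with their own number.

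With slide as a block the median of all features turned from -0.090 to 0.089, and 59.4% of them were positive, against 37.9% in the main fit. This contrast rests on 1 diabetic array. In it, and with the same values on slide 1 alone, the sign turned for Cdc20 (0.39), Cdkn1b (0.0035), Cdkn2a (0.58), Kif20a (-0.031), Mcm2 (0.23), Mcm4 (0.36), Mcm7 (0.17) and Fbxo5 (-0.29). With quantile normalization it turned for Mcm7 (0.021) and Ube2c (0.0066), with median scaling for Mcm2 (0.016) and Mcm7 (0.027), with normexp for Mcm7 (0.060) and Pcna (0.011), in the deposited table for Mcm2 (0.014), Mcm7 (0.091), Pcna (0.062) and Ube2c (0.027), and with slide as a random block for Mcm7 (0.0024). With 1 array left out the values spanned 0 for Bub1 (-0.00020 to 0.34), Cdk2 (-0.0017 to 0.13), Cdkn1b (-0.32 to 0.045), Cdkn2a (-0.51 to 0.11), Kif20a (-0.10 to 0.22), Mcm2 (-0.30 to 0.23), Mcm4 (-0.39 to 0.055), Mcm7 (-0.090 to 0.090), Pcna (-0.16 to 0.0015) and Ube2c (-0.23 to 0.083). Signal over background limits the 8 measured members below the filter.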
